A study of Mus musculus with 4 samples.

Results

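The 38 genes described here encode proteins of the nuclear lamina and nuclear envelope (15 genes), the heterochromatin protein HP1 with the enzymes and partners of histone H3K9 methylation (12 genes), and the DNA methylation machinery (11 genes). They were found by symbol, and all 38 were present among the 52630 gene identifiers measured. The cells were AML12, a non-tumour mouse hepatocyte line derived from a mouse that carries a human TGF-alpha transgene, grown with serum, ITS supplement and dexamethasone. Wells received 200 µl of concentrated lentivirus carrying either a control short hairpin RNA (shCtrl, 2 libraries) or a hairpin against Topors (shTopors, 2 libraries), the medium was changed after 24 hours and cells were collected on day 5. Topors encodes an E3 ligase that attaches ubiquitin and SUMO. Libraries were strand-specific and made from total RNA after removal of ribosomal RNA. The labels name no separate cultures for the 2 libraries of a group. The p-values below therefore rest on library-to-library spread alone, and that spread may be technical. How many hairpin sequences were used, and whether infected cells were selected, was not stated in the labels.

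The lamina is a meshwork of A-type and B-type lamins under the inner nuclear membrane that anchors silent chromatin at the nuclear periphery. SUN proteins of the inner membrane bind nesprins of the outer membrane and so connect the lamina with the cytoskeleton. Heterochromatin away from and at the periphery carries methylated H3K9, written by the SUV39H, G9a, GLP and SETDB1 enzymes and bound by HP1 proteins. DNA methylation is copied at replication by DNMT1 with UHRF1, set down anew by DNMT3 enzymes, and oxidised by TET enzymes. The title of the series concerns chromatin organization, and the comparison of shTopors with shCtrl asks here whether transcripts of these components differed when Topors was lowered.

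Levels are in TPM, an abundance corrected for transcript length and library total that keeps no depth, so the reads behind each value are unknown. Topors itself stood at 21.9 and 29.2 TPM in shCtrl 1 and 2 against 4.31 and 4.65 TPM in shTopors 1 and 2, a mean 5.71-fold lower (adjusted p = 0.0823 in limma's test). That test used log2(TPM + 1) and 13509 genes averaging 1 TPM or more. With a library left out, the log2 difference of Topors ranged from -2.465 to -2.066. A difference is shTopors minus shCtrl on that scale, which understates the difference of low genes. Its median over the tested genes was -0.18, and moved to -0.015 with median-of-ratios scaling and to -0.0064 with quantile normalization. In bulk RNA, fewer cells of a type and less RNA per cell cannot be told apart. Before the results, a gap between the knockdown libraries has to be given: 10.8% of tested genes were at least 2-fold apart between them in TPM + 1, beside 2.38% between the controls. Of 16 hepatocyte markers, 13 reached 1 TPM in every library and were tested. None passed, and at an unadjusted p under 0.05 none was higher and 5 were lower, beside 3.98% and 10.7% of all tested genes. Among those 5 were Apoe, at 209 and 426 TPM in the controls against 7.65 and 32.9 TPM in the knockdown, and Ttr, at 1119 and 2168 against 195 and 410 TPM. Albumin (Alb) was at 118 and 271 TPM in the controls, 4.15 TPM in shTopors 1 and 402 TPM in shTopors 2. Of the 13 tested markers, 3 had a log2 difference above 0 and 10 below it. The groups did not overlap for 1 higher and 5 lower markers, beside 14.6% and 35.2% of all tested genes. The higher one was Krt18, at 2069 and 1719 TPM in the controls against 3239 and 2168 TPM in the knockdown. Apoe, Ttr, Alb and Krt18 were singled out after their values were seen. The part of the hepatocyte markers in the differences below was not tested. Markers of leukocytes, endothelium and stellate cells each summed to between 0.0627 and 1.38 TPM per library. The cholangiocyte markers summed to 953 and 1414 TPM in shCtrl and to 1891 and 1091 TPM in shTopors, of which Krt19 gave 341, 296, 1396 and 345 TPM, while Epcam was under 1 TPM throughout.

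No gene among the 38 passed limma's test at an adjusted p of 0.05, whereas 0.037% of all tested genes did (0.0074% as higher and 0.0296% as lower). At an unadjusted p under 0.05, 1 gene was higher (Lbr) and 3 were lower (Syne1, Sun2 and Tet3), beside 3.98% and 10.7% of all tested genes. The groups did not overlap for 4 genes that were higher and 15 that were lower in the knockdown, beside 14.6% and 35.2% of all tested genes. By these counts the 38 genes did not stand apart from other genes. They differed among themselves: in both knockdown libraries Syne1 and Sun2 lay below both controls and Lbr above both. For Lbr, however, shTopors 2 (47.0 TPM) was close to shCtrl 2 (37.7 TPM). In contrast, Lmnb2, Lmna, Emd, Syne3, Dnmt1, Uhrf1, Ehmt2, Trim28 and Mbd3 lay on opposite sides of the control mean in the 2 knockdown libraries. The share of all genes that did so was not computed.

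**Figure D1:**
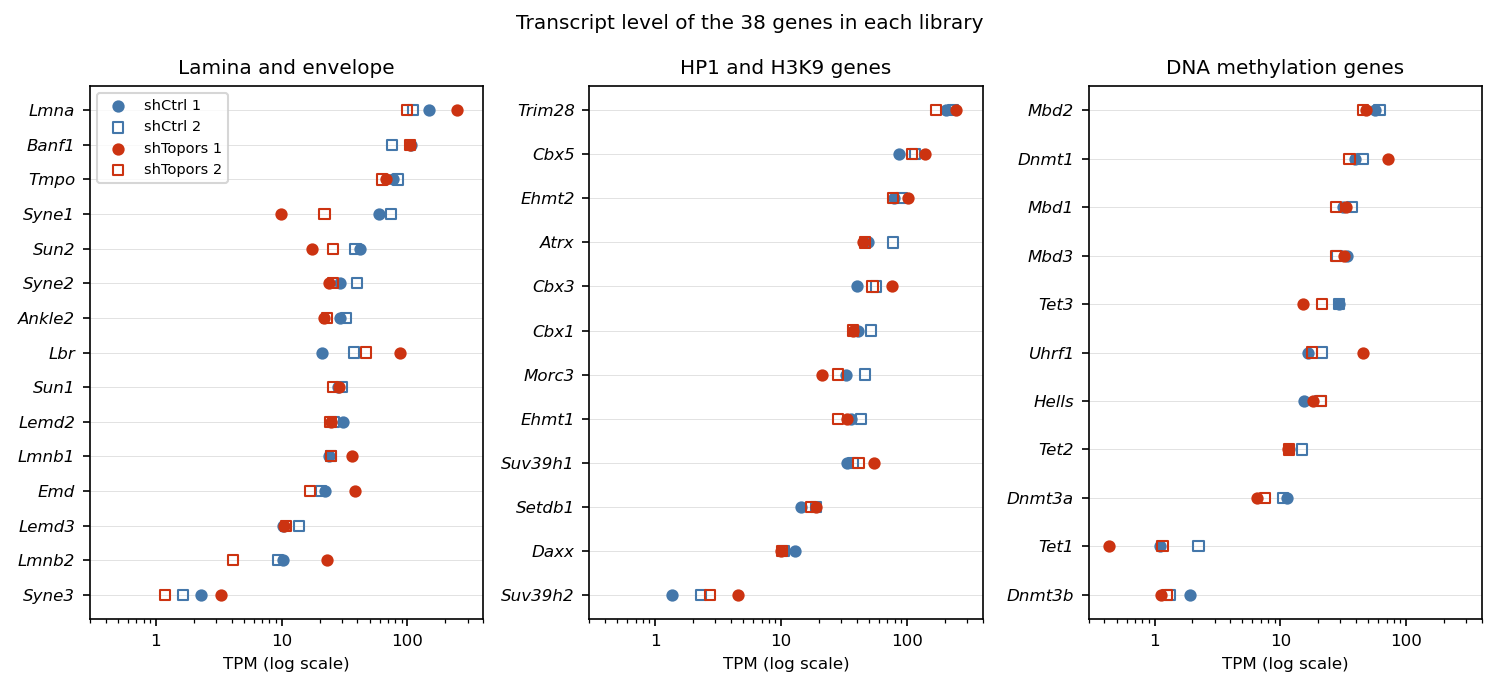
Transcript level in TPM (log axis) of each of the 38 genes, with 1 point per library: blue for shCtrl, red for shTopors, filled circles for library 1 and open squares for library 2. Both shTopors points of Syne1 and Sun2 lie left of both shCtrl points, while for Lmnb2 the shTopors points lie on either side of them.

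Syne1 had the largest difference of the 38 genes. It encodes nesprin-1, a giant outer nuclear membrane protein with an actin-binding end that SUN proteins hold at the nucleus. Syne1 (ENSMUSG00000096054, mm10 chromosome 10, 5020917 to 5551482, minus strand) stood at 59.3 and 74.2 TPM in shCtrl 1 and 2 and at 9.97 and 21.9 TPM in shTopors 1 and 2. Both knockdown libraries lay below both controls, and shTopors 1 was the lower of them. Mean levels of 66.7 ± 10.5 TPM in the controls and 15.9 ± 8.43 TPM in the knockdown (SD, n = 2) put the knockdown 4.19-fold lower. The log2 difference was -2.09 (SE 0.383, 95% interval -2.99 to -1.18) and did not pass limma's test (adjusted p = 0.131). It passed without shTopors 1 (log2 difference -1.56, adjusted p = 0.000513) and without shTopors 2 (-2.62, adjusted p = 2.20e-07), but not without shCtrl 1 (adjusted p = 0.455) or shCtrl 2 (0.868). In those fits the lone library of a group is assumed to vary like the other group. Under the other alternatives, which kept all libraries, the adjusted p ranged from 0.0629 to 0.382.

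The longest annotated transcript of Syne1 has 27908 nucleotides. The 265 tested genes with a longest transcript of at least 10 kb had a median log2 difference of -0.34, below the -0.18 of all tested genes, and 2 of them, Syne1 included, were at or below -2.09. Among all 13509 tested genes, 61 were. With a trend on transcript length and GC content removed, the log2 difference of Syne1 was -1.79. Values per gene do not tell the giant form from the many short forms of nesprin-1.

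Its relative Syne2, which encodes nesprin-2, was at 29.1 and 39.7 TPM in the controls, against 23.9 and 25.6 TPM in the knockdown. The knockdown libraries were again below the controls, by less: the log2 difference was -0.44 (95% interval -1.09 to 0.20, adjusted p = 0.474 in limma's test). With the length and GC trend removed it was -0.18, near the median of -0.14 over all genes in that fit. Within each library, which frees the value from scaling between libraries, the ratio of Syne1 to Syne2 was 2.04 and 1.87 in shCtrl and 0.417 and 0.854 in shTopors. Of the 2, Syne1 was therefore the more abundant transcript in both controls and the less abundant one in both knockdown libraries. This ratio and those given below are among 14 chosen after the values were seen, and a share of all gene pairs was not computed. Syne3, the gene of the nesprin that binds plectin, was low, with group means of 1.98 and 2.22 TPM.

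Of the SUN genes, whose products form the inner part of the bridge, Sun2 had the larger difference. Sun2 (mm10 chromosome 15, 79724070 to 79742536, minus strand) was at 41.8 and 38.7 TPM in the controls, against 17.5 and 25.7 TPM in the knockdown. Both knockdown libraries lay below both controls, and the mean was 1.86-fold lower. The log2 difference was -0.89 (SE 0.286, 95% interval -1.56 to -0.22) and did not pass limma's test (adjusted p = 0.248). Among the fits without 1 library it passed only without shTopors 2 (log2 difference -1.15, adjusted p = 0.0124). With all libraries kept, its adjusted p ranged from 0.193 to 0.416. Sun1 averaged 28.9 ± 1.46 TPM in the controls and 27.0 ± 2.14 TPM in the knockdown (SD, n = 2), with overlapping groups and an interval of -0.69 to 0.51. The ratio of Sun2 to Sun1 was 1.5 and 1.29 in shCtrl and 0.614 and 1.01 in shTopors.

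The lamin genes did not share a direction across the knockdown libraries. Lmna, which encodes lamins A and C, was at 148 and 111 TPM in the controls, against 248 and 98.7 TPM in the knockdown. Its highest and its lowest level were both knockdown libraries, and the interval of the log2 difference was -0.72 to 1.29. Lmnb2, the lamin B2 gene, was listed at 10.2 and 9.32 TPM in the controls but at 23.1 TPM in shTopors 1 and 4.10 TPM in shTopors 2. The knockdown libraries thus differed 5.64-fold with the controls between them. Without shTopors 2, Lmna and Lmnb2 passed as higher (log2 differences 0.95 and 1.16, adjusted p = 0.0225 and 0.0148 in limma's test), and without shTopors 1, Lmnb2 passed as lower (-1.08, adjusted p = 0.0314). With all libraries kept, the adjusted p was at least 0.613 for Lmna and 0.91 for Lmnb2. Lmnb1, the lamin B1 gene, was at 23.6 and 24.6 TPM in the controls, against 36.5 and 24.8 TPM in the knockdown. The groups did not overlap, although shTopors 2 lay barely above the controls, and the log2 difference was 0.31 (95% interval -0.37 to 0.99, adjusted p = 0.629). The order Lmna, Lmnb1, Lmnb2 was the same in all 4 libraries, with Lmna from 3.98 to 6.79 times the level of Lmnb1.

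Lbr, the gene of the lamin B receptor, was the one gene of the 38 at higher levels with an unadjusted p under 0.05. Its product binds B-type lamins and HP1 at the inner membrane and is also a sterol reductase of cholesterol synthesis. Lbr (mm10 chromosome 1, 181815335 to 181843046, minus strand) was at 20.8 and 37.7 TPM in the controls, against 87.0 and 47.0 TPM in the knockdown. The groups did not overlap, although shCtrl 2 and shTopors 2 lay close together. The mean was 2.29-fold higher, with a log2 difference of 1.16 (SE 0.399, 95% interval 0.22 to 2.10) and an adjusted p = 0.266 in limma's test. Without shTopors 2 it passed (1.60, adjusted p = 0.00095), and without shTopors 1 it did not (0.73, adjusted p = 0.199). With all libraries kept, its adjusted p ranged from 0.228 to 0.463. Relative to Lmnb1 in the same library, Lbr was at 0.881 and 1.53 in shCtrl and at 2.38 and 1.89 in shTopors.

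The LEM domain and BAF genes, whose products tie chromatin to the membrane, had smaller differences. Emd, the emerin gene, had means of 21.3 ± 1.25 TPM in the controls and 27.5 ± 15.3 TPM in the knockdown (SD, n = 2, in this order below), with shTopors 1 above and shTopors 2 below both controls. Tmpo, which encodes the LAP2 proteins, was at 79.9 ± 5.33 and 65.5 ± 3.31 TPM, and Ankle2, a regulator of BAF, at 30.8 ± 2.70 and 22.4 ± 0.881 TPM. Both had groups that did not overlap, with adjusted p = 0.586 and 0.453 in limma's test. Lemd2, Lemd3 and Banf1, the BAF gene, had log2 differences between -0.19 and 0.23. Banf1 shares exonic sequence with Eif1ad on the opposite strand, and the labels do not say whether counting used strand. The 15 envelope genes together had a median log2 difference of -0.093, which is 0.091 above that of all tested genes, and 9 lay above the all-gene median and 6 below it. Without shTopors 1 their median was -0.34, which is -0.18 relative to all genes in that fit.

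**Figure D2:**
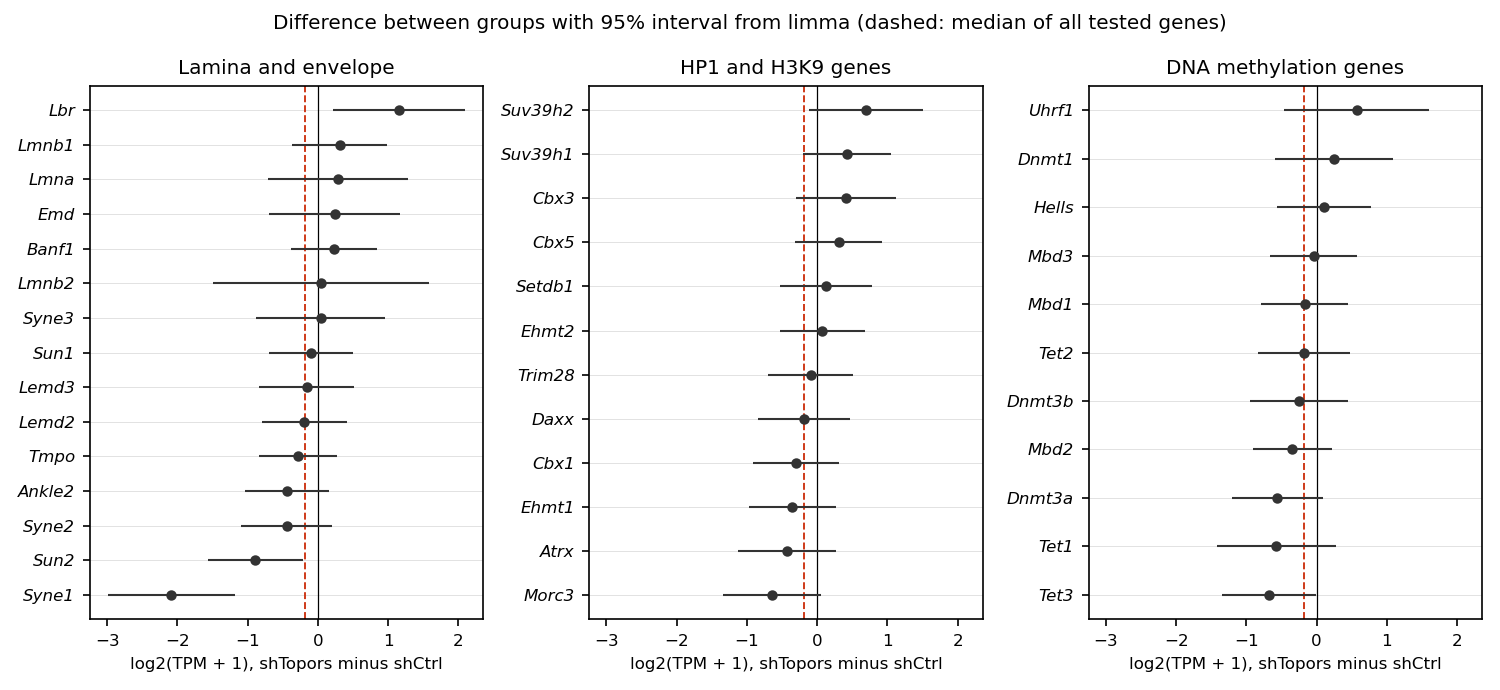
Log2 difference between shTopors and shCtrl, on the log2(TPM + 1) scale, for each gene with its 95% interval from limma, in 3 panels for the 3 sets. The interval of Syne1 (-2.99 to -1.18) and that of Sun2 lie below 0 and that of Lbr above it, that of Tet3 ends just below 0, and most others cross both 0 and the dashed median of all tested genes (-0.18).

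The HP1 genes differed in direction. HP1 proteins bind methylated H3K9 and compact chromatin. Cbx5, the HP1 alpha gene, was at 86.4 and 116 TPM in the controls, against 140 and 109 TPM in the knockdown. Cbx3, the HP1 gamma gene, was at 39.8 and 57.0 TPM in the controls, against 76.6 and 53.3 TPM in the knockdown. For both the groups overlapped and shTopors 1 was the highest library. Cbx1, the HP1 beta gene, was at 40.8 and 52.2 TPM in the controls, against 37.2 and 37.5 TPM in the knockdown, below both controls. Log2 differences were 0.31 for Cbx5, 0.42 for Cbx3 and -0.30 for Cbx1, with adjusted p = 0.602, 0.533 and 0.602 in limma's test, and all 3 intervals included 0. Within libraries, the ratio of Cbx3 to Cbx1 was 0.977 and 1.09 in shCtrl and 2.06 and 1.42 in shTopors, and the ratio of Cbx5 to Cbx1 was 2.12 and 2.21 in shCtrl and 3.76 and 2.92 in shTopors. Both ratios were higher in each knockdown library than in each control. They are among 14 ratios chosen after the values were seen, of which 10 did not overlap between groups. A share of all gene pairs was not computed. Of single tested genes, 14.6% did not overlap as higher and 35.2% as lower, which is another measure and no background for ratios. Cbx3 has processed copies, of which Cbx3-ps6 was at 5.10 and 7.29 TPM in the controls, against 12.7 and 8.42 TPM in the knockdown, so its reads may be split among them.

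Among the H3K9 methyltransferase genes, the means of the SUV39H pair were higher and that of the GLP gene lower in the knockdown, none passing limma's test. Suv39h1 had means of 35.2 ± 2.81 and 47.8 ± 9.20 TPM (SD, n = 2), and Suv39h2 1.85 ± 0.682 and 3.63 ± 1.28 TPM. Their products trimethylate H3K9 at pericentromeric repeats. Neither pair of groups overlapped, with log2 differences of 0.42 and 0.69 and adjusted p = 0.481 and 0.398 in limma's test. For both genes shTopors 1 was the highest library, and shTopors 2 lay closer to shCtrl 2 than to shTopors 1. Exons of Suv39h2 overlap those of Dclre1c on the opposite strand, which was at 7.19 and 10.3 TPM in the controls against 5.38 and 6.91 TPM in the knockdown, above Suv39h2 itself. Ehmt1, the GLP gene, was at 39.5 ± 5.24 and 30.7 ± 3.55 TPM, and Ehmt2, the gene of its partner G9a, at 84.9 ± 8.15 and 90.0 ± 18.0 TPM. The ratio of Ehmt1 to Ehmt2 was 0.452 and 0.476 in shCtrl and 0.323 and 0.365 in shTopors. Setdb1, which silences retroelements, had an interval of -0.54 to 0.78, and its exons overlap those of Cers2 on the opposite strand.

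The remaining heterochromatin genes had lower means in the knockdown. Trim28, whose product KAP1 recruits SETDB1 to zinc finger proteins, was the most abundant of the 38 transcripts in the controls, at 219 ± 20.2 TPM, and was at 208 ± 52.9 TPM in shTopors (SD, n = 2). Morc3, a PML body ATPase gene, was at 39.6 ± 9.58 and 24.9 ± 5.06 TPM, and Atrx, a chromatin remodeller gene, at 63.5 ± 20.7 and 45.5 ± 1.07 TPM. Daxx, the gene of the histone H3.3 chaperone that works with ATRX, was at 11.7 ± 1.78 and 10.1 ± 0.161 TPM. The groups of Morc3, Atrx and Daxx did not overlap, with adjusted p = 0.375, 0.509 and 0.766 in limma's test. As a set the 12 genes had a median log2 difference of -0.010, which is 0.17 above all tested genes. That excess was 0.0094 without shTopors 1 and 0.38 without shTopors 2. Of these 12 genes, 7 lay above the all-gene median and 5 below it.

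For DNA methylation, the maintenance genes were highest in shTopors 1. Uhrf1, whose product recognises hemimethylated DNA behind the replication fork, was at 16.7 and 21.4 TPM in the controls, against 45.3 and 17.8 TPM in the knockdown. Dnmt1, the maintenance methyltransferase gene, was at 39.2 and 45.0 TPM in the controls, against 71.1 and 35.5 TPM in the knockdown. In both cases shTopors 1 exceeded every other library, while shTopors 2 lay between the controls for Uhrf1 and below them for Dnmt1. Their log2 differences were 0.57 (95% interval -0.46 to 1.60) and 0.26 (-0.59 to 1.10), with adjusted p = 0.552 and 0.742 in limma's test. Without shTopors 2, Uhrf1 passed as higher (1.22, adjusted p = 0.00929), and without shTopors 1 its log2 difference was -0.080. With all libraries kept, its adjusted p ranged from 0.471 to 0.681. Hells, the gene of a remodeller that DNA methylation of repeats needs, did not share this pattern: it was at 15.4 and 20.8 TPM in the controls, against 18.1 and 20.9 TPM in the knockdown.

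The de novo methyltransferase genes were lower in both knockdown libraries. Dnmt3a was at 11.2 and 10.4 TPM in the controls, against 6.55 and 7.52 TPM in the knockdown. The groups were well separated, and the mean was 1.54-fold lower, but the log2 difference of -0.56 (SE 0.276, 95% interval -1.21 to 0.093) had an adjusted p = 0.398 in limma's test. Dnmt3b was low, at 1.92 and 1.32 TPM in the controls, against 1.13 and 1.26 TPM in the knockdown. Its log2 difference was -0.25 and turned to 0.014 after quantile normalization.

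The TET genes encode the dioxygenases that oxidise 5-methylcytosine, and Tet3 was the most abundant of them. Tet3 was at 29.1 and 29.4 TPM in the controls, against 15.0 and 21.4 TPM in the knockdown. Both knockdown libraries were lower, with means of 29.2 ± 0.192 and 18.2 ± 4.50 TPM (SD, n = 2), a log2 difference of -0.67 (95% interval -1.34 to -0.0058) and an adjusted p = 0.338 in limma's test. Tet2 was at 11.7 and 14.9 TPM in the controls, against 11.4 and 11.8 TPM in the knockdown, so its groups overlapped. The log2 difference of Tet2 was -0.17, which became 0.0028 with median-of-ratios scaling and 0.045 with quantile normalization. Tet1 was low, at 1.11 and 2.24 TPM in the controls, against 0.436 and 1.16 TPM in the knockdown. The ratio of Tet3 to Tet2 was 2.49 and 1.98 in shCtrl and 1.32 and 1.82 in shTopors.

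The methyl-CpG binding domain genes also had small differences. Mbd2, of the NuRD complex, was at 59.2 ± 3.10 and 46.5 ± 1.67 TPM (SD, n = 2) with no overlap and an adjusted p = 0.517 in limma's test. Mbd1 and Mbd3 had overlapping groups and log2 differences of -0.17 and -0.039. As a set, the 11 DNA methylation genes had a median log2 difference of -0.17, which is 0.010 above all tested genes and -0.076 relative to them without shTopors 1. Of these 11 genes, 6 lay above the all-gene median and 5 below it.

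**Figure D3:**
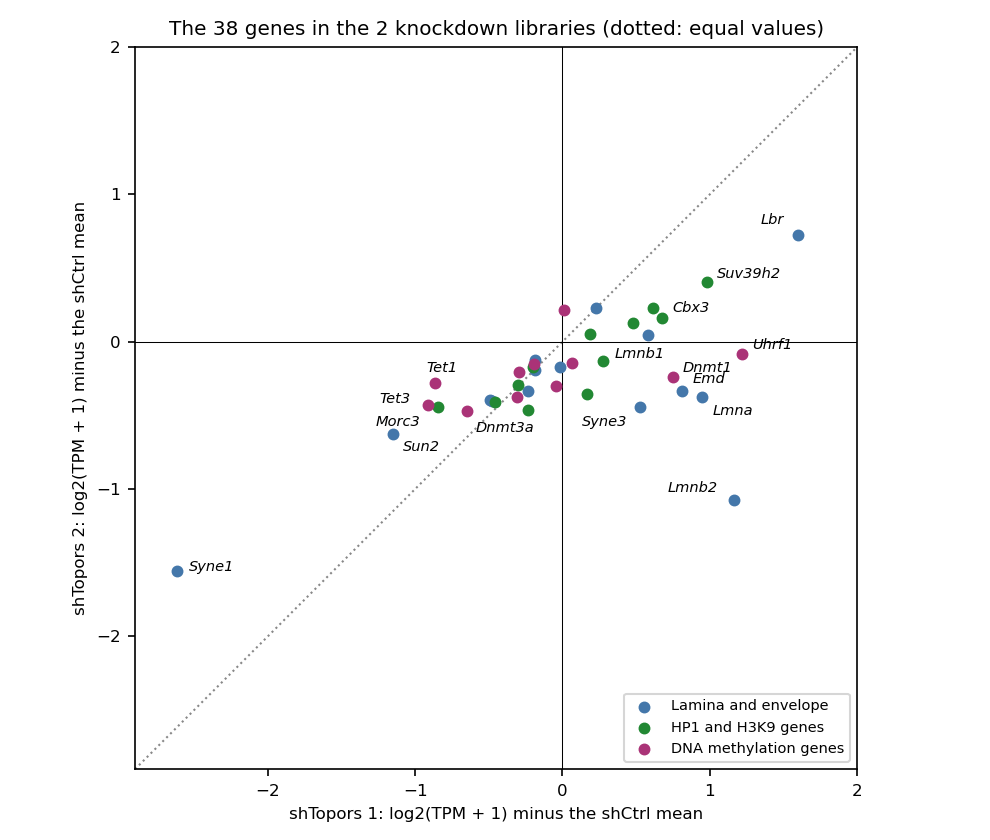
Log2(TPM + 1) of each gene minus the mean of the 2 controls, in shTopors 1 (horizontal) and shTopors 2 (vertical), so that both axes share the controls, with the dotted line marking equal values. Syne1 (-2.62 and -1.56) and Sun2 lie low on both axes and Lbr (1.60 and 0.73) high on both. Right of 0 and below it lie Lmnb2 (1.16 and -1.08), Lmna, Emd, Syne3, Dnmt1, Uhrf1, Ehmt2, Trim28 and Mbd3.

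By the count of genes at least 2-fold apart, the gap between the 2 knockdown libraries was near that in all genes. By other counts it was not: these genes were more often highest in shTopors 1, and more often below both controls in shTopors 2. These shares were not tested. At least 2-fold apart, in TPM + 1, were 5 of the 38 genes between the shTopors libraries (Lmna, Lmnb2, Emd, Syne1 and Uhrf1), beside 10.8% of all tested genes, and none between the controls, beside 2.38%. Of the 38 genes, 15 had their highest level in shTopors 1, beside 24.1% of all tested genes, and 1 had it in shTopors 2, beside 16.4%. As many, 15, were highest in shCtrl 2, beside 5980 of all 13509 tested genes, and 7 in shCtrl 1, beside 2064. Those highest in shTopors 1 were Lmna, Lmnb1, Lmnb2, Lbr, Emd, Syne3, Cbx3, Cbx5, Suv39h1, Suv39h2, Setdb1, Ehmt2, Trim28, Dnmt1 and Uhrf1. The lowest level was in shTopors 1 for 13 genes, beside 38.8%, and in shTopors 2 for 14, beside 30.3%. Below both controls lay 17 genes in shTopors 1 and 25 in shTopors 2, beside 53.5% and 50.8%, and above both lay 15 and 5, beside 28.9% and 26.1%. In all, 22 genes were higher in shTopors 1 than in shTopors 2, beside 48.3%. Without shTopors 2, 4 genes passed as higher and 2 as lower, beside 4.7% and 10.2% of tested genes. Without shTopors 1, none passed as higher and 2 as lower, beside 1.78% and 6.77%. Without shCtrl 1 or shCtrl 2 no gene passed, beside at most 0.0223% in either direction.

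Most genes of a 32-gene proliferation list were highest in shTopors 1, whereas 15 of the 38 genes described here were. The summed level of that list was 626 and 782 TPM in the controls, 1303 TPM in shTopors 1 and 835 TPM in shTopors 2. In it, 30 of the 32 genes were highest in shTopors 1, beside 24.1% of all tested genes. The list's median log2 difference was 0.86, with 18 genes higher at an unadjusted p under 0.05 and 0 lower, beside 3.98% and 10.7% of all tested genes, and none past the adjusted threshold in limma's test. Of the cholangiocyte markers, Krt19 and Krt7 were highest in shTopors 1, whereas Sox9, Spp1 and Cftr were lowest there. The part of either list in the levels above was not tested.

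After 15 genes were seen to be highest in shTopors 1, promoters were searched for the E2F-type motif known from S-phase genes. As many of the 38 genes were highest in shCtrl 2. The letters TTTCGCGC, TTTGGCGC, TTTCCCGC and TTTGCCGC were sought on both strands of RefSeq windows of 250 bases before to 50 after each start (GRCm38.p6). Windows were given for 34 of the 38 genes. A match was found in 7 of their 52 windows, which is 13.5%, beside 2.26% of all 32851 windows. The motif was chosen after the values were seen, and the windows compared were not matched for GC content or gene level. These shares therefore say nothing about the levels, and a link between motif and level was not tested. The match is in capitals below, read 5′ to 3′ on the gene's strand, with 46 bases on each side where no annotated exon is met and 11 otherwise. Of the 15 genes highest in shTopors 1, 14 had a window, and 4 of these held a match and 10 did not. Of the other 23 genes, 20 had a window and 3 held a match. The first 4 sequences belong to the former and the last 3, of Hells, Tmpo and Banf1, to the latter.
Uhrf1, chr17:56304082-56304181, plus strand: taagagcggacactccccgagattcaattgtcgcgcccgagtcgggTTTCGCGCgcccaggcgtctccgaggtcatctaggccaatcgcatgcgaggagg
Suv39h1, chrX:8074372-8074471, minus strand: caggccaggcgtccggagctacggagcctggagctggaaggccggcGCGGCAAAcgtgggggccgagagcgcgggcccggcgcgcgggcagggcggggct
Dnmt1, chr9:20952824-20952853, minus strand: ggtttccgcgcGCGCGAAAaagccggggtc
Cbx3, chr6:51470437-51470466, plus strand: tggagccccgcTTTGGCGCgctccgagacg
Hells, chr19:38930917-38930946, plus strand: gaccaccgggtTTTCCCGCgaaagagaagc
Tmpo, chr10:91170692-91170791, minus strand: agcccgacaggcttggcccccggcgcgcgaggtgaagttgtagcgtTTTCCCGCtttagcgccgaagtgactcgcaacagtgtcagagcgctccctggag
Banf1, chr19:5366939-5366968, minus strand: ggtcctccggaTTTCCCGCcccctcttcgt

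Dnmt1 had a further match at position 34 after its start. The matched letters begin at position -185 from the start for Uhrf1, which was highest in shTopors 1, and at -62 for Hells, which was not. A match describes letters in these windows and is not a bound site. No match was found in the windows of Syne1, Sun2, Lbr or Tet3.

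**Figure D4:**
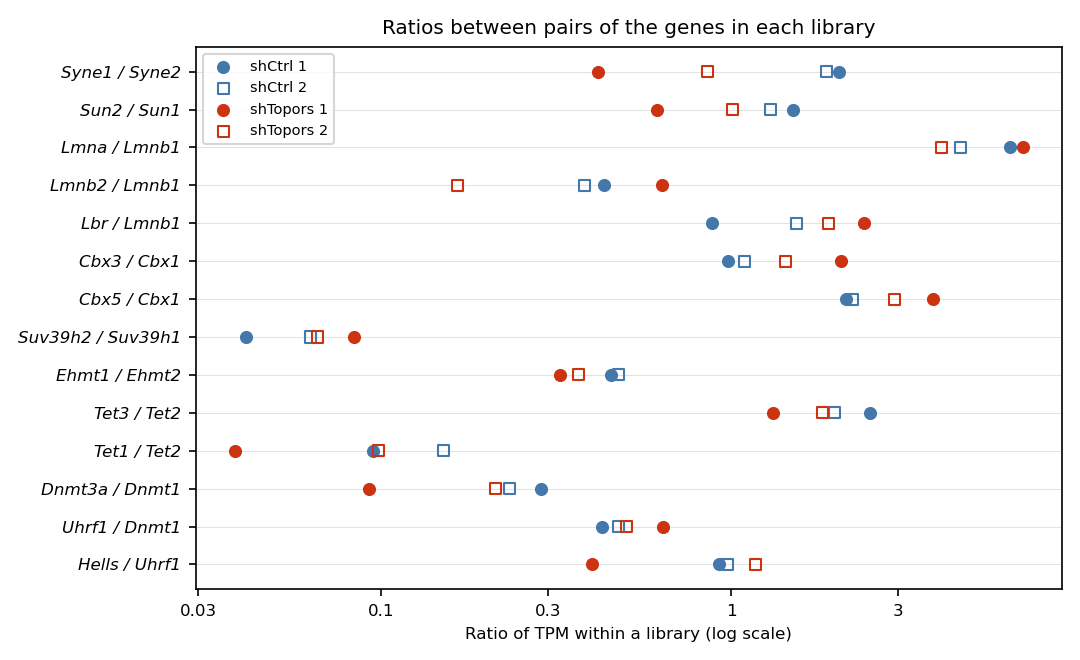
Ratio of TPM between pairs of the genes within each library (log axis), with colours for groups and symbols for library numbers. The ratio of Syne1 to Syne2 is at 1.87 and 2.04 in the controls and at 0.417 and 0.854 in the knockdown, and those of Lmna to Lmnb1, Lmnb2 to Lmnb1, Tet1 to Tet2 and Hells to Uhrf1 overlap between groups.

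Other genes of the same pathways were taken from wider lists. Of 24 further envelope genes, 21 were tested and none passed in limma's test or had an unadjusted p under 0.05, with a median log2 difference of -0.20. Narf, which binds prelamin A, had the smallest p and was at 38.6 ± 9.60 and 24.8 ± 3.57 TPM (SD, n = 2, adjusted p = 0.387). Of 33 further heterochromatin genes, 31 were tested and none passed, with a median of -0.32 beside -0.18 for all tested genes. At an unadjusted p under 0.05 none was higher and 4 were lower, near the 10.7% of all tested genes. The groups did not overlap for 0 higher and 17 lower genes, beside 14.6% and 35.2% of all tested genes. Phf8, an H3K9 demethylase gene, was at 22.7 ± 2.97 and 9.79 ± 5.36 TPM (adjusted p = 0.245), and Wiz, a zinc finger partner of G9a and GLP, at 18.0 ± 4.69 and 10.1 ± 0.368 TPM (adjusted p = 0.315). Of 27 further DNA methylation genes, 26 were tested and none passed, with a median of -0.30. At an unadjusted p under 0.05 there were 1 higher gene and 2 lower ones, beside 3.98% and 10.7% of all tested genes. Gadd45a, linked to active demethylation and a stress gene, was at 63.2 ± 1.74 and 21.7 ± 12.6 TPM (adjusted p = 0.196). Zfp57, which keeps methylation at imprinted regions together with KAP1, was at 12.7 ± 1.24 and 25.7 ± 2.92 TPM (adjusted p = 0.224).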

How the data were processed

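RNA of 4 AML12 libraries (2 shCtrl, 2 shTopors) was analysed from 1 table of TPM values per gene and library, as deposited by the authors. Build mm10 and the tools StringTie, DESeq2, HTSeq and HISAT2 are named in the submitters' processing notes, without roles or versions. The sources used here do not give the program that wrote the TPM, its annotation or its strand setting. Values of 3 identifiers on more than 1 row were summed, leaving 52630. TPM summed to between 999914 and 999943 per library, with 12928 to 13847 genes of at least 1 TPM, and no count or depth can be had from them. Columns were assigned by name, and 0 were left over.

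Genes averaging 1 TPM or more were fitted on log2(TPM + 1) in limma 3.58.1 (R 4.3.3), with a mean-variance trend and no covariate. Benjamini-Hochberg adjustment ran over all 13509 genes, with a threshold of 0.05. The fit was tested on simulated data with equal spread in both groups. The simulation therefore does not cover the wider gap between the knockdown libraries seen here. Coordinates, exon overlaps, transcript length and GC content came from GENCODE M21 (mm10), which held 52397 of the identifiers, and promoters from RefSeq (GRCm38.p6). Of the 52 promoter windows, 45 ended in an exon of their gene as written, and 0 in the reverse orientation.

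The genes, lists and tests were chosen with earlier results of these data known. Values in every library are given for Topors, the lamin, HP1, DNMT and TET genes, Lbr, Syne1, Syne2 and Uhrf1, and any further member with an unadjusted p under 0.05 or an absolute log2 difference of at least 1. Others are given by means or ranges, and Hells was added after its values were seen. Of other pathway genes, up to 2 per list with the smallest p are named. Alternatives were pseudocounts of 0.1 and 5, filters, scalings, variance models, a replicate block, removal of a length and GC trend, and each library left out. Ratios, unadjusted counts, counts per knockdown library and the motif search were added after seeing the data.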

Additional observations from a re-analysis of the deposited data

How the results depend on the processing

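Of 267 values recomputed for the 18 genes of the set given per library, 258 kept their direction under 15 alternatives. Of these genes, 11 kept it throughout, Syne1, Syne2, Sun2, Lbr, Dnmt3a and Tet3 among them. With a changed filter or variance model, or with the replicate block, the log2 difference equals that of the main fit by construction. Those values could not turn, so these counts overstate how stable the directions were. With a library left out, log2 differences ranged from -0.37 to 0.95 for Lmna, from -1.08 to 1.16 for Lmnb2, from -0.24 to 0.75 for Dnmt1, from -0.093 to 0.32 for Hells and from -0.080 to 1.22 for Uhrf1. Dnmt3b was at 0.014 after quantile normalization, and Tet2 at 0.0028 with median-of-ratios scaling and 0.045 with quantile normalization. The cause was not tested.

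None of the 38 genes passed as higher or lower in the 11 alternatives that kept all libraries. With a library left out, from 0 to 4 passed as higher and from 0 to 2 as lower. Those were Lmna, Lmnb2, Lbr and Uhrf1 as higher and Syne1 and Sun2 as lower without shTopors 2, beside 4.70% and 10.2% of all genes, and Lmnb2 and Syne1 as lower without shTopors 1, beside 6.77%. At an unadjusted p under 0.05, from 0 to 3 were higher and from 1 to 4 lower with all libraries kept. The 3 higher came with median-of-ratios scaling or quantile normalization, beside 7.88% and 7.58% of all genes, and the 1 lower with the length and GC trend removed, beside 10%. Without shTopors 2, 8 were higher and 5 lower, beside 8.95% and 19.6%. In the other fits without a library 0 or 1 was higher, beside 0.996% to 5.27%, and 1 or 2 lower, beside 2.95% to 15.3%.

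The median log2 difference of the envelope genes was 0.090 after median-of-ratios scaling and from -0.34 to -0.015 with a library left out. For the DNA methylation genes it was 0.0028 after that scaling, 0.014 after quantile normalization, and from -0.30 to -0.11 with a library left out. The heterochromatin genes had 0.18 under median-of-ratios scaling and from -0.15 to 0.18 with a library left out. Relative to all genes, the medians with all libraries kept ranged from -0.040 to 0.12 for the envelope, from 0.043 to 0.25 for heterochromatin and from -0.12 to 0.024 for DNA methylation, each lowest with no filter. With a library left out they ranged from -0.18 to 0.19, from 0.0094 to 0.38 and from -0.076 to 0.0018, so the sign turned for the envelope and DNA methylation genes. Libraries with the same replicate number share only a number in the labels, and their deviations from group means correlated across genes at 0.199. Topors had an adjusted p from 0.0498 with the replicate block, where it passed, to 0.37 with no filter. With the replicate block 0 of the 38 genes passed in either direction, and at an unadjusted p under 0.05 there was 1 higher and there were 4 lower. Tet1 and Dnmt3b have no value where a mean of 5 TPM was required, nor Tet1 without shCtrl 2, since they did not reach the filter. TPM keeps no depth, so the counting error of low genes such as Tet1, Dnmt3b, Suv39h2 and Syne3 is unknown.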
